A study of Mus musculus with 35 samples.

Results

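The extracellular matrix genes described here are 46 genes that encode collagens, laminins, nidogens, proteoglycans, matrix glycoproteins, elastic fibre proteins and the enzymes that crosslink them. They were chosen by gene symbol from a table of 22180 genes, and all 46 were found and passed the filter on low values in each fit. Of these, 15 were counted as basement membrane genes and 31 as interstitial matrix genes, and both classes are reported apart. The table came from 35 RNA libraries of mouse small intestine in 7 groups of 5 biological replicates. Of these groups, 6 were primary enteric glial cultures from adult wildtype mice on a BL6 background (C57BL/6J in the study's methods). Their cells came from the muscularis externa, grew as neurospheres and were then differentiated on Matrigel, laminin or poly-L-ornithine. On each coating they stayed naive or received IL-1β at 10 ng/ml for 24 h. The seventh group was RiboTag material, taken without a stimulus from the same tissue layer of Sox10iCreERT2Rpl22HA/+ mice. In these mice, tamoxifen switches on an HA-tagged ribosomal protein in cells with an active Sox10 driver. Ribosomes were pulled down through the tag, so this group holds ribosome-bound RNA, whereas the cultures gave total RNA.

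The basement membrane is a thin sheet built from a laminin network and a type IV collagen network, linked by nidogens and by the heparan sulfate proteoglycans perlecan and agrin. The interstitial matrix lies beyond it and holds fibrillar collagens, type VI collagen, fibronectin, small proteoglycans and elastic fibres, which are made in large part by fibroblasts and smooth muscle cells. In the gut wall, enteric glia and neurons lie in ganglia that are surrounded by a basement membrane, and Matrigel and laminin are themselves basement membrane material.

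Values are normalized counts, that is, reads per gene from the 3′ end of transcripts divided by the authors with 1 size factor per library. Library totals ran from 7522181 to 9185843 normalized counts, sequencing depth was not known, and a value does not grow with transcript length, so levels of different genes can be set side by side. Cultures also held transcripts that mark other cell types. Summed over 15 enteric glia markers, naive cultures held 9931 to 28001 normalized counts, IL-1β-treated cultures 7917 to 19954 and RiboTag libraries 40592 to 62024. The glial transcription factor Sox10 was detected in all 35 libraries. Summed over 20 fibroblast markers, the ranges were 7344 to 13814, 8372 to 22512 and 9954 to 29498, and over 14 smooth muscle markers 10456 to 53132, 3358 to 22303 and 375136 to 613319. The fibroblast ranges depend on complement C3 and gelsolin, Gsn, and were 4238 to 7870.2, 4698 to 8532 and 1783 to 2116 without both, a choice made after seeing the values. In such bulk libraries, fewer cells of a type and less RNA per cell cannot be told apart. The 15 genes used to check the IL-1β response summed to 1825 to 5632 in naive and 84089 to 475660.0 in treated cultures, with no overlap.

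In naive cultures the 46 genes took 2.504 ± 0.505% of all normalized counts (SD, n = 15), most of it interstitial. The interstitial genes summed to 188369 ± 42579 normalized counts and the basement membrane genes to 24924 ± 1473. Sparc, which encodes a collagen-binding matricellular glycoprotein, was the highest single gene at 76088 ± 14338. It was followed by the small leucine-rich proteoglycans Dcn (decorin, 16450.5 ± 8522) and Bgn (biglycan, 15653 ± 6092), by Col1a1, a chain of fibrillar type I collagen (13718 ± 4206), and by Fn1, fibronectin (11859 ± 2782). The naive libraries of these last 4 genes overlapped with each other, and those of Sparc lay above them all.

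Among basement membrane genes, the type IV collagen chain Col4a1 (4470.3 ± 837) and the laminin β1 chain Lamb1 (4009 ± 663) were highest in naive cultures. Nid1, which encodes the laminin-to-collagen linker nidogen 1, stood at 3055 ± 1141, Col18a1 at 2591 ± 588 and Col4a2 at 2584 ± 519. Of the laminin α chains among the members, which set the type of laminin, Lama4 was highest (712 ± 122), above Lama2 (211 ± 103) and Lama5 (103 ± 44.3). The α1 chain Lama1, which is not a member, stood at 219 ± 148. The lowest members were Nid2 (20.9 ± 19.3) and Col28a1, a collagen known from peripheral glia (12.8 ± 13.03).

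Culture libraries differed more within a group in interstitial than in basement membrane genes. The median standard deviation within groups was 0.59 on the log2 scale for interstitial genes and 0.36 for basement membrane genes, against 0.85 for all 20687 genes tested and 0.54 for genes with a mean of at least 50 normalized counts. Each library carries a serial number in its label, and libraries with the same rank of that number within their group deviated together. There are 5 such sets of 6 culture libraries, 1 library from each group, and what the rank marks is not stated in the labels. Between sets lay a median of 65.9% of the variance within groups for interstitial genes and 38.6% for basement membrane genes, against 17.2% for all 20687 genes tested and 22.1% for genes with a mean of at least 50 normalized counts. The share was 92.2% for Dcn, 85.9% for Col1a2, 85.6% for the elastic fibre protein Fbln1 and 84.9% for the proteoglycan Lum, and lowest at 6.98% for Col5a3.

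**Figure D1:**
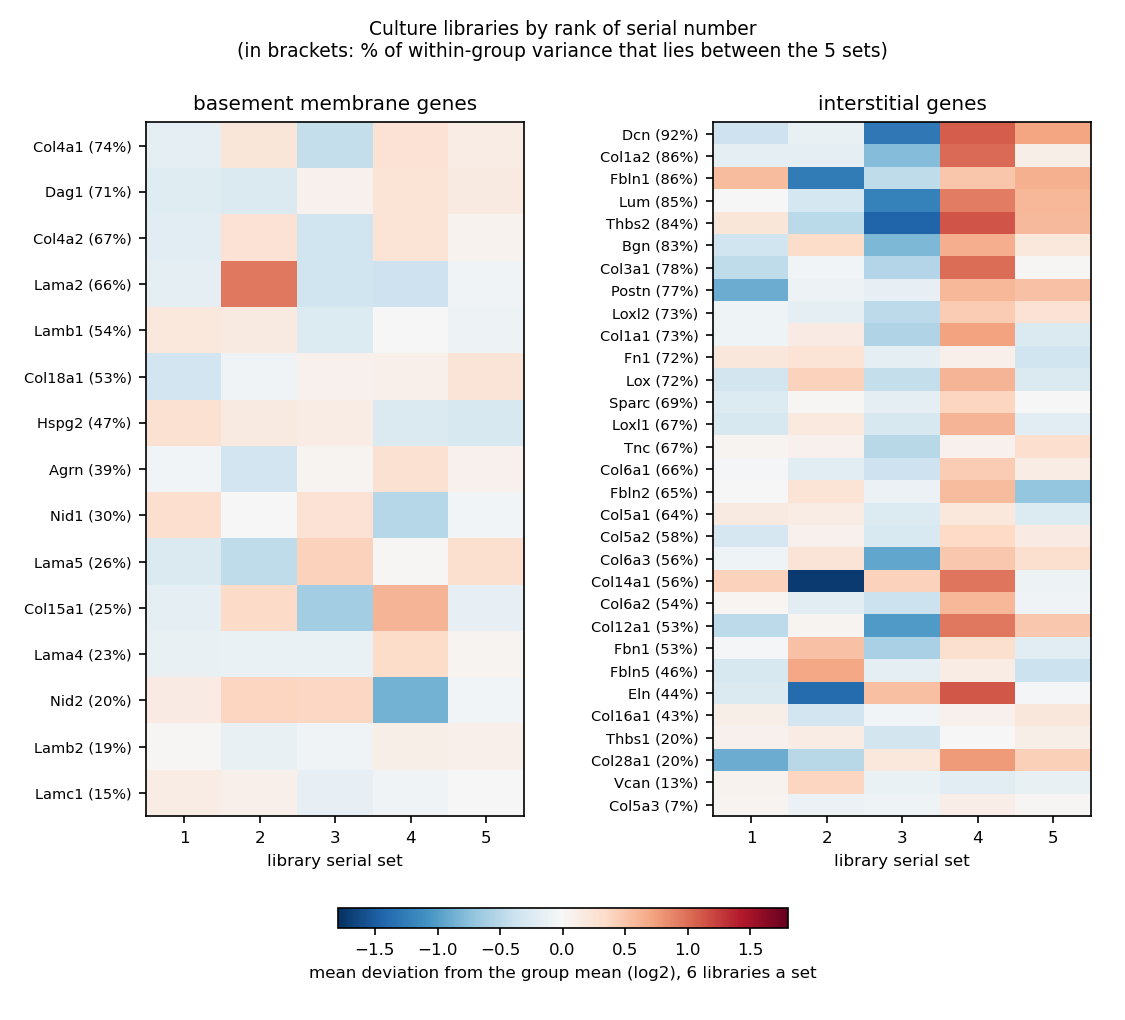
Mean deviation from the group mean (log2 scale, color) of each of the 46 genes in the 5 sets of 6 culture libraries that share a rank of library serial number, with basement membrane genes on the left and interstitial genes on the right. Most interstitial genes were high in set 4 and low in set 3, with Dcn at the top (92.2% of its variance within groups between sets).

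In set 4, 12 interstitial genes and no basement membrane gene were the highest of their group in at least 5 of 6 groups, a pattern shown by 1.11% of all genes tested. These 12 were Col1a1, Col1a2, Col3a1, Col6a1, Col6a2, Col12a1, Thbs2, Sparc, Lum, Fbln2, Loxl1 and Loxl2. In set 3, 9 members (0.812% of all genes) were the lowest of their group as often, among them Col4a1, Tnc, Dcn and Bgn. Dcn reached 20087 to 37633 normalized counts in the 6 libraries of set 4 and 3655 to 8169 in those of set 3, which did not overlap. Col1a2, the partner of Col1a1 in type I collagen, reached 6622 to 13610.5 in set 4 and 2000.0 to 3813 in set 3. Fibroblast markers summed to 12237 to 22512 in set 4 and 7344 to 10659 in set 3 (5473 to 8532 and 4238 to 6969 without C3 and Gsn), and enteric glia markers to 9372 to 15186 and 16914 to 28001. Pericyte markers summed to 1228 to 1805 and 662 to 1094, and those of interstitial cells of Cajal to 887 to 2211 and 185 to 504. In that last list Thbs4 had the highest mean in naive cultures (359), with Kit at 12.9. Smooth muscle markers overlapped (6144 to 46316 and 3944 to 17626). The part of these cell types in the difference was not tested. A few genes followed other sets. In at least 5 of 6 groups, Lama2 was highest in set 2 (0.445% of all genes), where the fibril-associated collagen Col14a1 (3.06 to 323 in set 2, 104 to 1002 in set 4), Col16a1 and Fbln1 were lowest (0.479% of all genes). Postn, periostin, was lowest in set 1 in all 6 groups (0.00967% of all genes).

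After IL-1β, basement membrane and interstitial genes moved in different proportions. With the response averaged over the 3 coatings, 10 of 46 members rose (background 3.42% of all genes tested rose) and 15 fell (background 4.02%). Of the 15 basement membrane genes, 6 rose, 4 fell and 5 were not called, with a median log2 fold change of 0.21. Of the 31 interstitial genes, 4 rose, 11 fell and 16 were not called, with a median of -0.42, beside -0.04 for all genes. The summed basement membrane genes went from 24924 ± 1473 in naive to 30062 ± 2426 normalized counts in treated cultures (SD, n = 15), and the interstitial genes from 188369 ± 42579 to 145812 ± 46725. Sparc made up much of this fall, at 76088 ± 14338 in naive and 51606 ± 14316 in treated cultures. Without Sparc the interstitial genes summed to 112281 ± 30463 in naive and 94206 ± 34486 in treated cultures. A gene counted as called when its limma p, adjusted by Benjamini-Hochberg over all genes, was under 0.05, and fold changes are on the log2(normalized count + 2) scale, which understates changes of low genes. All 25 called members had the same sign of the response on each of the 3 coatings.

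**Figure D2:**
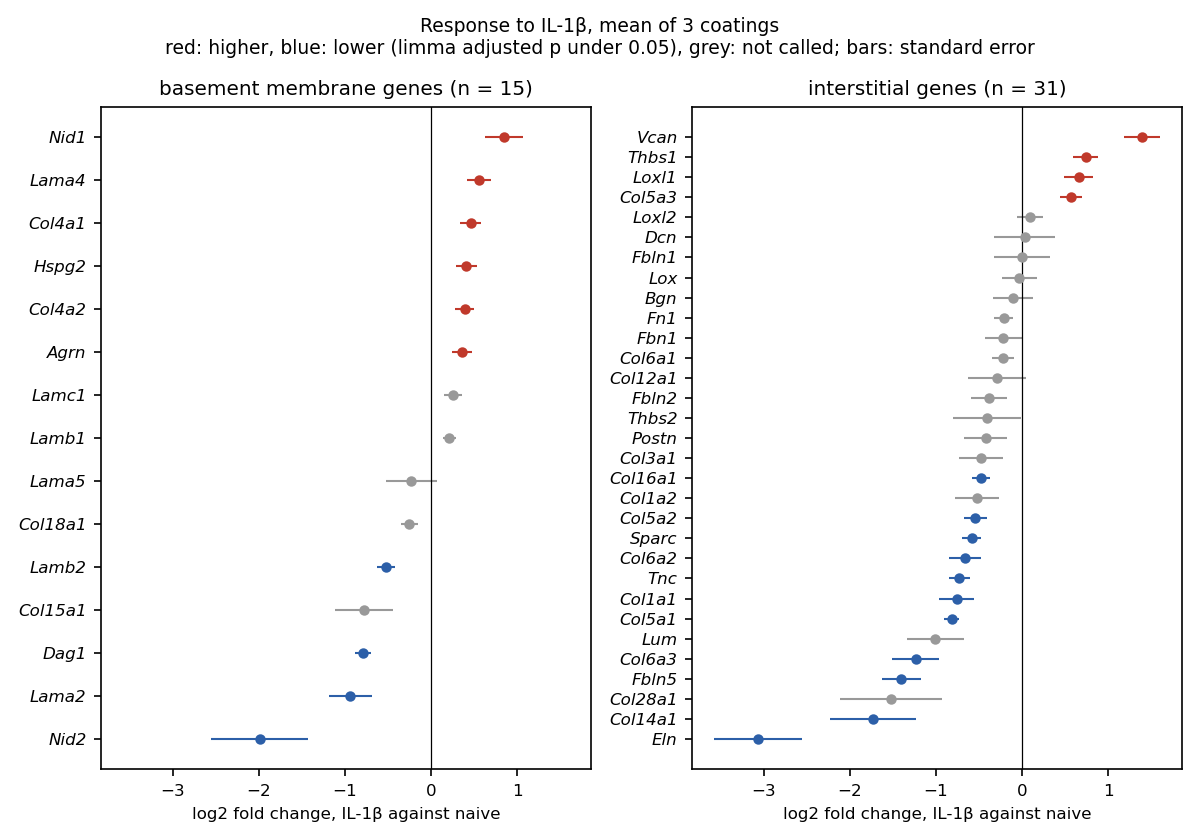
Log2 fold change of the 46 genes, IL-1β-treated against naive cultures, mean of 3 coatings (15 against 15 libraries), with standard errors; red points were called higher, blue points lower and grey points not called by limma. Basement membrane genes (left) ran from -1.99 (Nid2) to 0.85 (Nid1), and interstitial genes (right) from -3.06 (Eln) to 1.39 (Vcan).

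Among the basement membrane genes that rose were both major chains of type IV collagen, the protein of the basement membrane network. Col4a1 ran from 2846 to 5927 with a median of 4330.1 in the 15 naive libraries and from 3563 to 8891 with a median of 6499 in the 15 treated ones (log2 fold change 0.46, standard error 0.123, limma adjusted p = 0.0173). Col4a2 ran from 1909 to 3384 with a median of 2497 and then from 2046 to 4675 with a median of 3482 (log2 fold change 0.39, standard error 0.112, limma adjusted p = 0.0228). Treated and naive ranges overlapped for both. These chains are encoded side by side on mouse chromosome 8 and read in opposite directions from a shared promoter region. Their promoter windows, 250 bases before to 50 after the start in RefSeq (build GRCm38.p6), have starts 21 bases apart and share 78 bases. They are shown because both genes moved together. Capitals mark the CCAAT box (CCAAT) and the GC box (GGGCGG) on either strand, so that ATTGG and CCGCCC are the same motifs on the other strand.
Col4a1 (chr8:11312777-11313076, minus strand): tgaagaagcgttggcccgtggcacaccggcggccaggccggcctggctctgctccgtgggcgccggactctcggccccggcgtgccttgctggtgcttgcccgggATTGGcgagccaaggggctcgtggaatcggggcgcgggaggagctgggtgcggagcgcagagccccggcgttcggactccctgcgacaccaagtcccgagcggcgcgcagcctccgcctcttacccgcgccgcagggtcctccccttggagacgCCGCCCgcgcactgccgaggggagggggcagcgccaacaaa
Col4a2 (chr8:11312555-11312854, plus strand): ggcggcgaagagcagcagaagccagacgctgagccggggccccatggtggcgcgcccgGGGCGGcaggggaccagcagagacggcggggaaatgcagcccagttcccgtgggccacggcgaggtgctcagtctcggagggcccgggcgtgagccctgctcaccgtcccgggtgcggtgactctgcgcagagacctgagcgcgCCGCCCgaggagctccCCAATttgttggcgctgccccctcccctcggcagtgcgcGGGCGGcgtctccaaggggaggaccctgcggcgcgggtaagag

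In the Col4a2 window 1 CCAAT box lay 32 bases before the start, with 3 GC boxes. The Col4a1 window held 1 CCAAT box, 145 bases before its start, and 1 GC box. This GC box lies in the stretch that both windows share and is also 1 of the 3 GC boxes of the Col4a2 window. Of all 32851 promoter windows in the table, 37.4% held CCAAT and 35.7% held GGGCGG on either strand, and of the 39 windows of the 31 members with an entry, 14 and 26 did. Searched in the same way, TGANTCA (an AP-1 site) was in 7.81% of all windows and in 1 of 39 member windows. A match describes letters in the window and was not tested as a binding site.

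Nid1 rose most among the basement membrane genes. Its naive libraries ran from 1110.3 to 5340.2 with a median of 2969 and its treated libraries from 2531 to 8296 with a median of 5731 (log2 fold change 0.85, standard error 0.215, limma adjusted p = 0.012). Lama4, the laminin α4 chain, ran from 509.9 to 886 with a median of 723 and from 605 to 1757 with a median of 969.6 (log2 fold change 0.56, standard error 0.135, limma adjusted p = 0.00354). Hspg2, which encodes perlecan, ran from 773 to 2169 with a median of 1457 and from 1345 to 2677 with a median of 1768 (log2 fold change 0.41, standard error 0.123, limma adjusted p = 0.0292). Ranges overlapped for all of them, and some treated libraries lay above every naive library of the same coating for each. Agrn, which encodes agrin, rose by 0.36 with an adjusted p of 0.049 from limma, and this call was lost without any 1 of 23 libraries (adjusted p up to 0.115). The Hspg2 call was lost in 7 of 41 alternative settings (limma adjusted p up to 0.115). Among these were the fits without any 1 of 6 libraries (adjusted p 0.0514 to 0.0563), namely laminin IL-1β replicate 3, laminin naive replicate 5, Matrigel IL-1β replicate 2, Matrigel naive replicate 2 and poly-L-ornithine naive replicates 3 and 5. The 7 libraries that Agrn could lose and stay called were laminin naive and IL-1β replicate 3, Matrigel naive replicate 4, Matrigel IL-1β replicates 2 and 4 and poly-L-ornithine naive replicates 3 and 5. Without the 6 libraries of serial set 4, Col4a1 (adjusted p = 0.12 from limma) and Col4a2 (0.0976) were no longer called.

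Dag1, which encodes dystroglycan, a receptor for laminin, agrin and perlecan, fell on every coating. On Matrigel its naive libraries held 1596, 2723, 1782, 3291 and 2364 normalized counts and its treated libraries 1360.4, 1116, 1421, 1408 and 1063. On laminin the values were 1651, 2544, 2269, 1896 and 2042 and then 1251, 1199, 947, 1282 and 1295. On poly-L-ornithine they were 2134, 1745, 2311, 1581 and 2054 and 1149, 1025, 1353, 955 and 1416. Every treated library lay below every naive library of its coating, which 0.193% of all genes showed on all 3 coatings. Over the coatings the fall was large relative to its error (log2 fold change -0.79, standard error 0.0960, limma adjusted p = 5.75e-09), and Dag1 was called on each of Matrigel (-0.84, limma adjusted p = 9.52e-04), laminin (-0.79, limma adjusted p = 0.00196) and poly-L-ornithine (-0.74, limma adjusted p = 0.00437), the last a call lost with a constant variance prior (limma adjusted p = 0.0556). Dag1 lies at chr9:108204861-108263977 in GRCm38.

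Of the 6 laminin chains, Lama4 rose and 2 fell. Lama2, the α2 chain of the laminin of muscle and Schwann cells, ran from 76.4 to 399 with a median of 196 in naive and from 50.7 to 236 with a median of 90.01 in treated libraries (log2 fold change -0.93, standard error 0.251, limma adjusted p = 0.00979). Lamb2, the β2 chain, fell by 0.52 over the coatings. On Matrigel it held 966, 1279, 1034, 1190.2 and 863 in naive and 793, 761, 751, 558 and 519.9 in treated libraries, without overlap (log2 fold change -0.66, standard error 0.179, limma adjusted p = 0.0315), a call lost without serial set 4 (0.0787). Lamc1, Lamb1 and Lama5 had log2 fold changes of 0.25, 0.21 and -0.23 and were not called, although Lamb1 was called higher with the library serial set as a block. Nid2 was called lower (-1.99, limma adjusted p = 0.0161), but its mean was 20.9 ± 19.3 in naive and 6.40 ± 11.7 in treated libraries, near the low end of the table, and it was listed at 0 in all 5 treated libraries on poly-L-ornithine. The Nid2 call was not kept under every alternative.

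Vcan, which encodes the large chondroitin sulfate proteoglycan versican, rose most of all members (GRCm38 chr13:89655309-89743027). On Matrigel its naive libraries held 279, 112, 216, 52.9 and 276 normalized counts and its treated libraries 558, 451, 824, 419.6 and 684. On laminin the values were 218, 95.5, 362, 279 and 129.9 in naive and 387, 379, 661, 481 and 545 in treated libraries. On poly-L-ornithine the naive libraries held 205, 471, 462, 416 and 491 and the treated ones 503, 791, 855, 710.0 and 1411. All treated libraries lay above all naive libraries of their coating, as for 0.561% of all genes, and Vcan was the only member that did so on all 3 coatings. The mean response was 2.62-fold (log2 fold change 1.39, standard error 0.210, limma adjusted p = 6.48e-06). Within single coatings it was called on Matrigel (1.83, limma adjusted p = 0.00208), and not on laminin (1.30, limma adjusted p = 0.053) or poly-L-ornithine (1.04, limma adjusted p = 0.165).

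The other interstitial genes that rose were a matricellular glycoprotein, a crosslinking enzyme and a minor fibrillar collagen. Thbs1, thrombospondin 1, which activates latent TGF-β, held 1027, 905, 656, 589.7 and 504 in naive and 1041, 2089, 1548, 1098 and 1267 in treated libraries on Matrigel, without overlap (log2 fold change 0.94, standard error 0.245, limma adjusted p = 0.0306), a call lost without serial set 4 (0.208). Over the coatings it ran from 504 to 1282 with a median of 821 and from 811 to 2146 with a median of 1294 (log2 fold change 0.74, standard error 0.142, limma adjusted p = 2.62e-04). Loxl1, a lysyl oxidase that crosslinks elastin, ran from 429.8 to 1566 with a median of 844 and from 979 to 2502 with a median of 1423 (log2 fold change 0.66, standard error 0.163, limma adjusted p = 0.00805), with ranges that overlapped. Its relatives Lox (-0.03) and Loxl2 (0.10) were not called.

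Col5a3 rose while the other type V collagen chains fell. Type V collagen is a fibrillar collagen that nucleates type I fibrils, and Col5a3 encodes its α3 chain. On poly-L-ornithine, where Col5a3 was called alone, it held 672, 290.2, 397, 482 and 426 in naive and 659, 863, 1031, 627 and 860.3 in treated libraries (log2 fold change 0.86, standard error 0.224, limma adjusted p = 0.0198), and 3 treated libraries lay above all naive ones. Over the coatings it ran from 290.2 to 879 with a median of 503 and from 572 to 1205 with a median of 726 (log2 fold change 0.57, standard error 0.129, limma adjusted p = 0.00153), and without the libraries of serial set 4 its adjusted p from limma was 0.0503 over the coatings and 0.0576 on poly-L-ornithine.

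**Figure D3:**
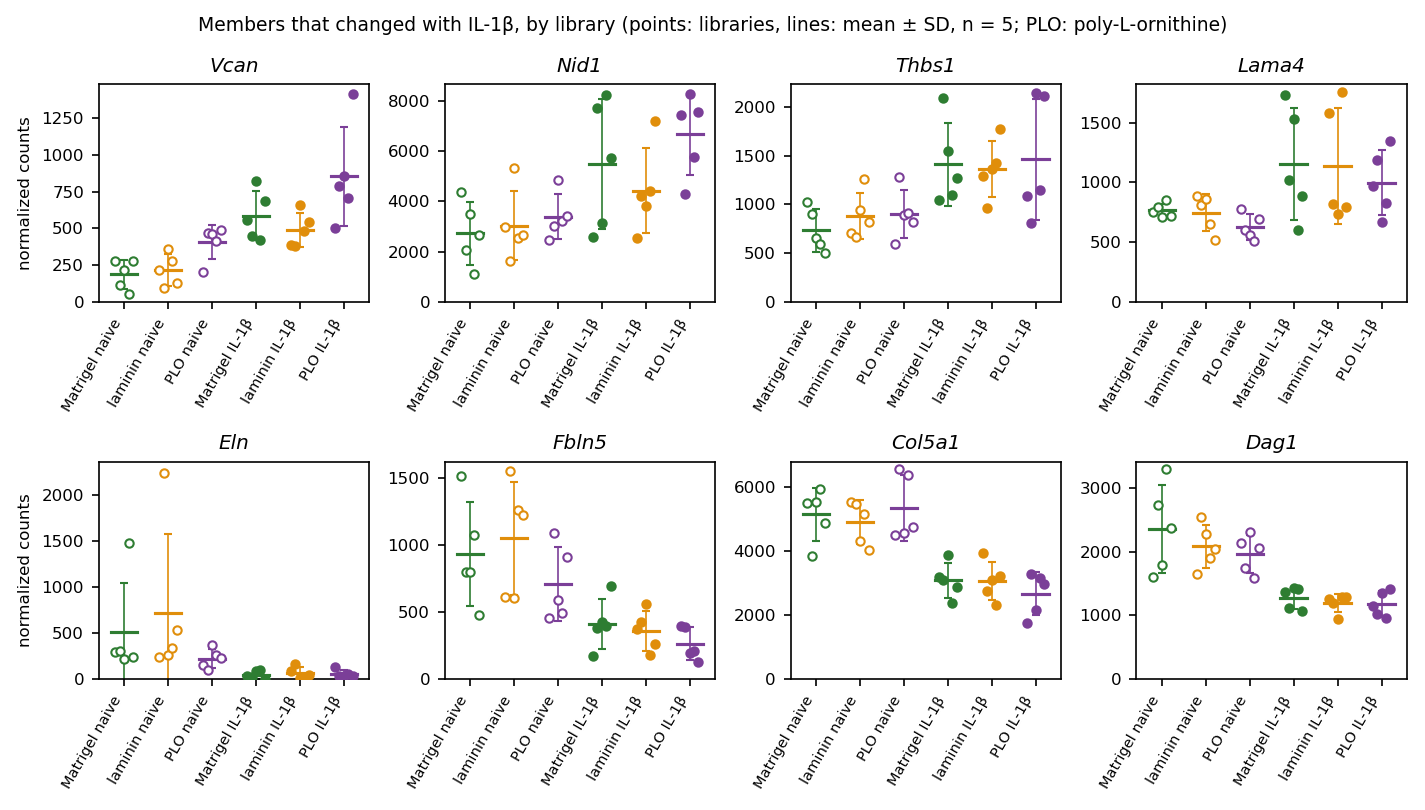
Normalized counts of 8 members in each culture library, with naive libraries as open and IL-1β-treated libraries as filled points on each of 3 coatings; lines are means and bars SD (n = 5, cut at 0). Treated Vcan libraries (379 to 1411) and naive ones (52.9 to 491) did not overlap within any coating, and neither did those of Dag1.

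Col5a1, the α1 chain of type V collagen (GRCm38 chr2:27886381-28039510), had the smallest adjusted p of all members. Its naive libraries on Matrigel held 5521, 3856, 5533, 5965 and 4898 and the treated ones 3203, 3102, 3895, 2373 and 2875. Laminin cultures held 5530.5, 5481, 4329, 5179 and 4052 without and 3947, 2763, 3103, 2317 and 3239 with IL-1β. Poly-L-ornithine cultures held 4498, 6564, 4578, 6386 and 4759 without and 1768, 3289, 2156, 3179 and 2966 with it. Groups did not overlap on laminin and poly-L-ornithine, and on Matrigel 1 treated library lay above the lowest naive one. The response was called over the coatings (log2 fold change -0.82, standard error 0.0909, limma adjusted p = 3.74e-09) and on each coating alone (limma log2 fold change and adjusted p -0.74 and 0.00348 with Matrigel, -0.69 and 0.00732 with laminin, -1.02 and 2.44e-05 with poly-L-ornithine). With a constant variance prior the calls on Matrigel (limma adjusted p = 0.0797) and laminin (0.115) were lost. Col5a2, the α2 chain, fell too (-0.54, limma adjusted p = 0.00889).

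Elastic fibre genes fell in part. Eln encodes elastin, the core of elastic fibres. On Matrigel its naive libraries held 292, 306, 222, 1474 and 241 and its treated libraries 32.02, 19.01, 92.5, 99.05 and 0 normalized counts. With laminin as the coating, the values were 239.9, 2242, 262, 341 and 530.4 and 89.4, 166, 7.13, 23.2 and 46.4. Naive and treated groups did not overlap on these coatings, although 1 naive library of each, both of serial set 4, stood far above the others.

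On poly-L-ornithine Eln held 152, 98.5, 369, 262 and 229.7 in naive and 132, 38.04, 37.1, 53.4 and 34.6 in treated libraries, of which 1 overlapped. The mean response was the largest fall of all members (log2 fold change -3.06, standard error 0.509, limma adjusted p = 1.21e-04), with a call on Matrigel (-3.80, limma adjusted p = 0.0176) and laminin (-3.44, limma adjusted p = 0.036), and the mean call was kept without serial set 4. On Matrigel the call was lost in 2 of 41 alternative settings (limma adjusted p up to 0.175), among them the fit without naive replicate 4 (0.0615). On laminin it was lost in 8 of 41. Among these were the fits without any 1 of 6 libraries (0.0543 to 0.136), which were naive replicates 2, 4 and 5 and IL-1β replicates 3, 4 and 5.

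Fbln5 encodes fibulin 5, which tethers elastin to cells. It held 608, 1548, 606, 1256 and 1223 in naive and 373, 424, 563, 178 and 259 in treated laminin cultures (log2 fold change -1.54, standard error 0.390, limma adjusted p = 0.0302). In poly-L-ornithine cultures it held 458, 1091, 589.8, 495 and 909 and 398, 390.1, 193, 213 and 126 (log2 fold change -1.47, standard error 0.390, limma adjusted p = 0.0391). Neither pair of groups overlapped, and both calls were lost without serial set 4 (limma adjusted p = 0.159 and 0.32). On Matrigel, with 1513, 800.5, 800.2, 1070.3 and 474 against 173, 383, 423, 393 and 693, 1 treated library lay inside the naive range, and over the coatings the fall was called (log2 fold change -1.40, standard error 0.225, limma adjusted p = 5.44e-05). Fbn1, Fbln2 and Fbln1 had log2 fold changes of -0.21, -0.38 and 0.0004 and were not called.

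The fibrillar and fibril-associated collagens fell or were not called, apart from Col5a3. Col1a1 ran from 7658 to 23589 with a median of 12267 in naive and from 4459 to 18802 with a median of 7443 in treated libraries (log2 fold change -0.76, standard error 0.203, limma adjusted p = 0.0185). Col14a1, which binds the surface of collagen fibrils, ran from 138 to 1002 with a median of 335 and from 3.06 to 555 with a median of 122 (log2 fold change -1.73, standard error 0.501, limma adjusted p = 0.0314). This call was lost without laminin naive replicate 2 (adjusted p = 0.0568 from limma), without Matrigel IL-1β replicate 5 (0.0518), with the replicate number as a block (0.0505) and without serial set 4 (0.0534). Col16a1 fell over the coatings (-0.48, limma adjusted p = 0.00144) and on Matrigel alone, where naive libraries held 1394, 2095, 2072, 1689 and 2106 and treated ones 1742, 1082, 1313, 836 and 809 (log2 fold change -0.74, standard error 0.187, limma adjusted p = 0.019), of which 4 treated libraries lay below all naive ones. Col1a2 (-0.52) and Col3a1 (-0.48), whose libraries differed strongly by serial set, were not called, although without serial set 4 Col3a1 was (limma adjusted p = 0.00743). Both were called lower with the library serial set as a block. The fibril-associated Col12a1 was not called (-0.29).

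Of type VI collagen, which forms beaded filaments around cells, the α3 chain fell most. Col6a3 ran from 437 to 1637 with a median of 927 in naive and from 100.1 to 876 with a median of 446 in treated libraries (log2 fold change -1.23, standard error 0.270, limma adjusted p = 0.00315), and on Matrigel the groups did not overlap. Col6a2 fell (-0.66, limma adjusted p = 0.0206), and Col6a1 was not called (-0.22, limma adjusted p = 0.418). Tnc, which encodes the anti-adhesive glycoprotein tenascin C, fell (-0.73, limma adjusted p = 7.26e-05). Sparc fell over the coatings (-0.58, limma adjusted p = 4.81e-04) and on poly-L-ornithine, from 64292, 86785, 66379, 65992 and 72074 in naive to 35299, 46642, 42639.6, 37278 and 50734 in treated libraries (log2 fold change -0.75, standard error 0.186, limma adjusted p = 0.0282), without overlap. The proteoglycans Dcn (0.03), Bgn (-0.10) and Lum (-1.004, called lower without serial set 4, limma adjusted p = 0.0356), the glycoproteins Fn1 (-0.21), Thbs2 (-0.40) and Postn (-0.42), and Col28a1 were not called, and nor were the multiplexins Col15a1 (-0.78) and Col18a1 (-0.25). With the library serial set as a block, an alternative, Lum, Fn1, Postn and Col18a1 were called lower.

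Counted within single coatings, 2 members rose and 5 fell on Matrigel (background 1.14% and 0.822%), 0 rose and 4 fell on laminin (1.15% and 0.735%), and 1 rose and 4 fell on poly-L-ornithine (1.2% and 1.14%). At an unadjusted limma p under 0.05, 23 of 46 members passed with Matrigel, 19 with laminin and 21 on poly-L-ornithine, as did 2241, 2191 and 2340 of all 20687 genes. The summed smooth muscle markers were lower after IL-1β on each coating, with ratios of 0.483, 0.432 and 0.381 in the order Matrigel, laminin, poly-L-ornithine (p from two-sided exact permutation tests = 0.0714, 0.0952 and 0.00794, adjusted over 11 lists 0.262, 0.279 and 0.0437). Fibroblast marker sums were at 1.43, 1.42 and 1.03 times the naive mean, and glial marker sums at 0.729, 0.796 and 0.773 times. None of these fibroblast and glial differences passed the test (exact permutation p from 0.0873 to 0.833). Without C3, which went from a mean of 435 to 5188 in treated cultures, the fibroblast ratios were 0.865, 0.921 and 0.670, below 1 on each coating. Without C3 and Gsn they were 1.06, 1.13 and 0.842. Endothelial marker sums had ratios of 0.468 (Matrigel), 0.730 (laminin) and 1.01 (poly-L-ornithine), with exact permutation p = 0.00794, 0.111 and 0.944 (adjusted 0.0437, 0.279 and 0.984), and the difference between coatings was not tested. Over the coatings the list was split, with 5 of 10 endothelial markers at higher and 5 at lower means after IL-1β. Flt1 (211 in naive, 111 in treated cultures) and Egfl7 (158 and 111) were lower, and Pecam1 (57.4 and 68.6) was higher. The part of these cell types in the matrix response was not tested.

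Enzymes that fold and process collagen responded in single steps. Of 23 genes of procollagen synthesis and processing, 2 rose and 4 fell after IL-1β (background 3.42% and 4.02%), with a median log2 fold change of -0.14. P4ha2, a catalytic subunit of collagen prolyl 4-hydroxylase, went from 234 ± 66.7 to 1319 ± 559.7 normalized counts (SD, n = 15; log2 fold change 2.40, limma adjusted p = 1.46e-13), while its relative P4ha1 fell (log2 fold change -0.54, limma adjusted p = 0.00397). Adamts14, a procollagen N-propeptidase, rose at low levels (22.9 ± 19.9 to 79.3 ± 49.7, log2 fold change 1.88, limma adjusted p = 0.0227). Pcolce, which enhances removal of the procollagen C-propeptide, fell (log2 fold change -0.88, limma adjusted p = 4.43e-04), as did the lysyl hydroxylase Plod2 (log2 fold change -0.84, limma adjusted p = 1.84e-06). Of 71 other matrix genes tested, 2 rose and 17 fell (background again 3.42% and 4.02%, median -0.46). The latent TGF-β binding protein Ltbp2 (41.4 ± 37.6 to 144 ± 143, log2 fold change 1.81, limma adjusted p = 0.0143) and osteopontin, Spp1 (157 ± 205 to 400 ± 405, log2 fold change 1.92, limma adjusted p = 0.049), rose. The SD of Spp1 was larger than its mean in naive and in treated cultures. The largest falls were those of the short-chain collagen Col8a2 (log2 fold change -4.45, limma adjusted p = 7.93e-06), Cilp (59.0 ± 47.5 to 2.62 ± 5.48, log2 fold change -3.38, limma adjusted p = 1.86e-04) and the small proteoglycan Ogn (log2 fold change -2.79, limma adjusted p = 4.76e-05).

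In the main fit, which had no block for the library serial set, coating made no difference that passed the test for any member. With that block, Fn1 and Col3a1 were called between coatings, as given below. Matrigel and laminin, which hold basement membrane proteins, were compared with poly-L-ornithine, a synthetic polymer. In naive cultures 0 of 46 members were called, as were 0 of all 20687 genes (background 0%), while 5 members and 1046 of all genes had an unadjusted limma p under 0.05. The median log2 fold change was 0.12 for basement membrane and 0.07 for interstitial genes. The smallest p among members were those of Vcan (log2 fold change -1.15, standard error 0.316, limma adjusted p = 0.462) and Lamb2 (log2 fold change 0.38, standard error 0.155, limma adjusted p = 0.878). Naive Vcan libraries, given above, overlapped between coatings, with 4 of 5 poly-L-ornithine libraries above all 10 others. Lamb2 held 966, 1279, 1034, 1190.2 and 863 on Matrigel, 1379, 1454, 1080.4, 1107 and 1064 on laminin and 1131, 698, 929, 799 and 848 on poly-L-ornithine, and these also overlapped.

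After IL-1β, 0 members were called between coatings, against 0.222% of all genes called higher and 0.0822% called lower on Matrigel and laminin, with 5 members and 1564 of all genes at an unadjusted limma p under 0.05. Col18a1, which encodes the precursor of endostatin, held 1899, 1575, 1684, 1926 and 1894 on Matrigel, 2262, 2339, 2473, 1873 and 1579 on laminin and 2268, 2770.2, 3199, 2099.9 and 2673 on poly-L-ornithine, with overlap (Matrigel and laminin against it, log2 fold change -0.42, standard error 0.144, limma adjusted p = 0.312). Fn1 held 6186, 8795, 9559.6, 7825 and 9765 on Matrigel and 10016, 9373, 11666, 6464 and 11212 on laminin. On poly-L-ornithine it held 10269, 12501, 10402, 13334 and 16469.5, of which 2 values lay inside the laminin range (log2 fold change -0.48, standard error 0.168, limma adjusted p = 0.361). Both genes were lower on Matrigel and laminin on average, with overlap. With the library serial set as a block, an alternative, Fn1 was called lower on Matrigel and laminin in naive (log2 fold change -0.40, limma adjusted p = 0.0445) and in treated cultures (-0.48, 0.000891), and Col3a1 higher in treated cultures (0.81, 0.0461).

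The difference of the response between coatings was tested as an interaction, and 0 members and 0 of all genes passed (background 0%), with 0 members and 867 of all genes at an unadjusted limma p under 0.05. The members with the smallest p were Loxl2 (difference 0.63, standard error 0.326) and Lama2 (-0.93, standard error 0.533), both with a limma adjusted p of 0.961. A call on 1 coating and not on another, as for Vcan, thus has no test behind it that shows the coatings to differ.

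RiboTag libraries from tissue were compared with the 15 naive culture libraries, a comparison into which mouse line, RNA fraction and cell makeup also enter, as given below. Interstitial matrix genes were mostly lower in RiboTag libraries and basement membrane genes were split. Of the 46 members, 9 were called higher (background 31.3% of 20320 genes tested) and 27 lower (background 14.1%). Of the basement membrane genes, 5 were higher and 8 lower, and of the interstitial genes 4 higher and 19 lower. The median log2 fold change was -0.33 for basement membrane and -1.15 for interstitial genes, beside 0.32 for all genes tested. Relative to that median, 11 members lay above and 35 below, and no called member changed sign. The share of all calls that were higher was 68.9% with the authors' scaling and 49.4% after quantile normalization (4264 higher, 4367 lower), which moved the median of all genes to -0.16. Members called were then 11 higher and 29 lower. Against single coatings, 7 members were higher and 27 lower than on Matrigel (background 25.8% and 12.1%), 8 and 26 against laminin (25.8% and 12.1%), and 7 and 24 against poly-L-ornithine (24.4% and 12.2%).

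The samples differ in more than the place of the glia. The RiboTag group comes from another mouse line, is ribosome-bound RNA and was extracted with another kit, so these cannot be told apart from the tissue. Smooth muscle markers, all 14 of them detected, summed to 375136 to 613319 in RiboTag libraries against 10456 to 53132 in naive cultures (ratio 18.8). Pericyte markers, 7 of 8 in the table, summed to 19254 to 51826 against 852 to 1720.1, and 20 fibroblast markers to 9954 to 29498 against 7344 to 13814. Single genes carried both sums. Rgs5 had a mean of 29060.3 in RiboTag libraries against 99.6, and without it the pericyte markers summed to 3334 to 3883 against 605 to 1698, with Pdgfrb (83.3 against 618) and Notch3 (42.3 against 99.9) at lower means. Gsn, which other cells also express, had a mean of 13311 against 3151 and C3 of 2252 against 435, and without both the fibroblast markers summed to 1783 to 2116 against 4238 to 7870.2. Of the 20 fibroblast markers, 12 had lower means in RiboTag libraries, among them Pdgfra (315 against 831) and Cd34 (153 against 2393), with Twist2 at 0 in all 5. Enteric glia markers summed to 40592 to 62024 against 9931 to 28001, a ratio of 3.07. Epithelial markers summed to 841 to 2049 against 0 to 134, and macrophage markers to 1549 to 2620.2 against 196 to 1079. The part of these cells in the differences below was not tested.

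**Figure D4:**
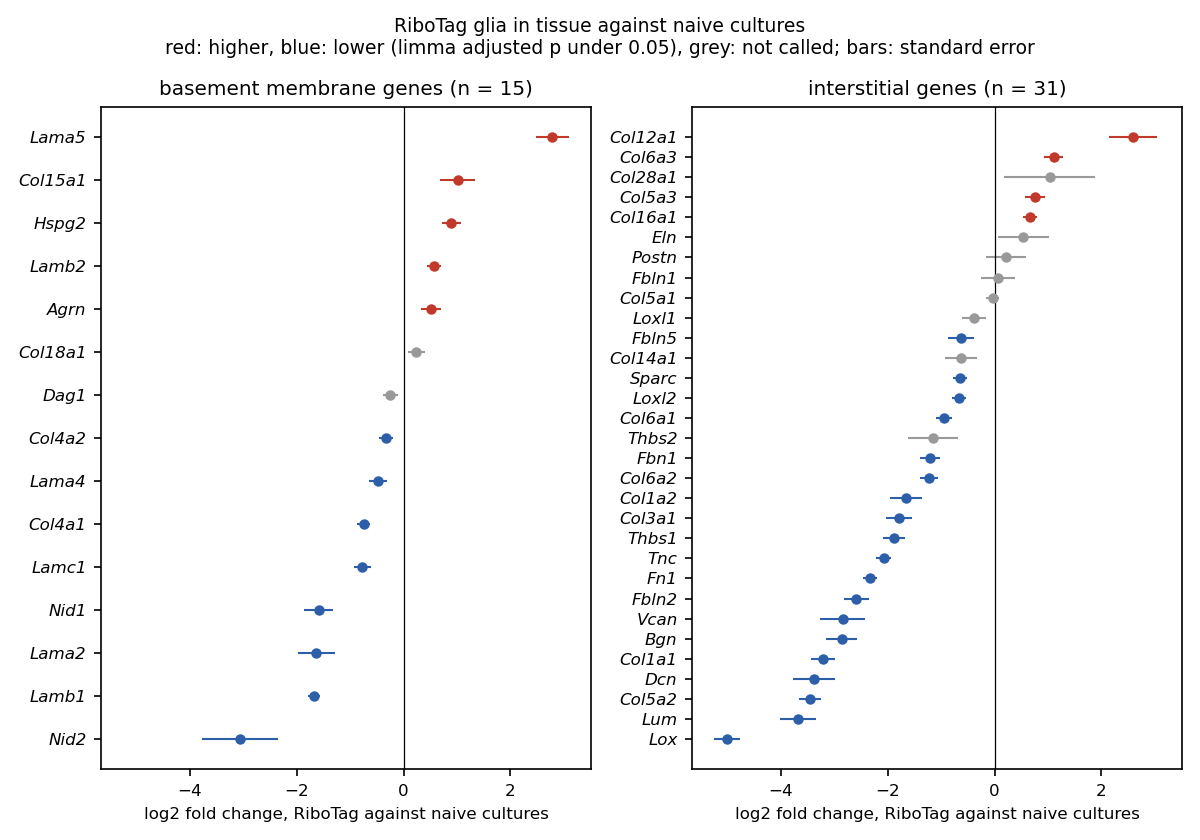
Log2 fold change of the 46 genes in 5 RiboTag libraries against 15 naive culture libraries, with standard errors; red points were called higher, blue points lower and grey points not called by limma. Lama5 (2.79) was the highest of all points and Lox (-5.00) the lowest, and Nid2, listed at 0 in all RiboTag libraries, is drawn at a fitted value that depends on the pseudocount.

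The laminin chains differed from each other. Lama5, the α5 chain of the laminin found in many adult basement membranes, held 574, 529.9, 670.2, 698 and 909.6 normalized counts in RiboTag libraries and ran from 39.96 to 203 with a median of 94.6 in naive cultures (log2 fold change 2.79, standard error 0.304, limma adjusted p = 1.68e-09). Lamb2 held 1850.4, 1405, 1344, 1688 and 1489 and ran from 698 to 1454 with a median of 1064 (log2 fold change 0.58, standard error 0.134, limma adjusted p = 5.37e-04). Lama5 did not overlap, whereas 3 of 5 RiboTag libraries were above all cultures for Lamb2. Lamb1 (-1.68, limma adjusted p = 5.26e-14) and Lamc1 (-0.78, limma adjusted p = 1.25e-04) were lower, with every RiboTag library below every naive culture, and Lama2 (-1.64, limma adjusted p = 1.61e-04) and Lama4 (-0.48, limma adjusted p = 0.023) were lower too. The Lama4 call was lost without RiboTag replicate 3 (limma adjusted p = 0.169) or 5 (0.0695).

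The heparan sulfate proteoglycans were higher in RiboTag libraries. Hspg2 held 2396, 2007, 2837, 3139.8 and 2672 and ran from 773 to 2169 with a median of 1457 in cultures (log2 fold change 0.90, standard error 0.181, limma adjusted p = 1.41e-04), with 4 of 5 RiboTag libraries above all cultures. Agrn was called higher (0.51, limma adjusted p = 0.0229), a call lost without RiboTag replicate 3, 4 or 5 (limma adjusted p 0.0644 to 0.106). Col15a1, a multiplexin that links basement membranes to collagen fibrils, held 299.9, 543, 453, 653 and 711 and ran from 102 to 633 with a median of 223 (log2 fold change 1.02, standard error 0.328, limma adjusted p = 0.0123). Col4a1 (-0.75, limma adjusted p = 5.14e-06), Col4a2 (-0.33, limma adjusted p = 0.0353), and Nid1 (-1.59, limma adjusted p = 9.88e-05) were lower, and Nid2, also called lower, was listed at 0 in all 5 RiboTag libraries. The Col4a2 call was lost without any 1 of 6 libraries (adjusted p up to 0.17), namely laminin naive replicates 2 and 4, Matrigel naive replicate 1, poly-L-ornithine naive replicate 2 and RiboTag replicates 2 and 4, as it was without serial set 4 (0.0625). Dag1 and Col18a1 were not called.

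**Figure D5:**
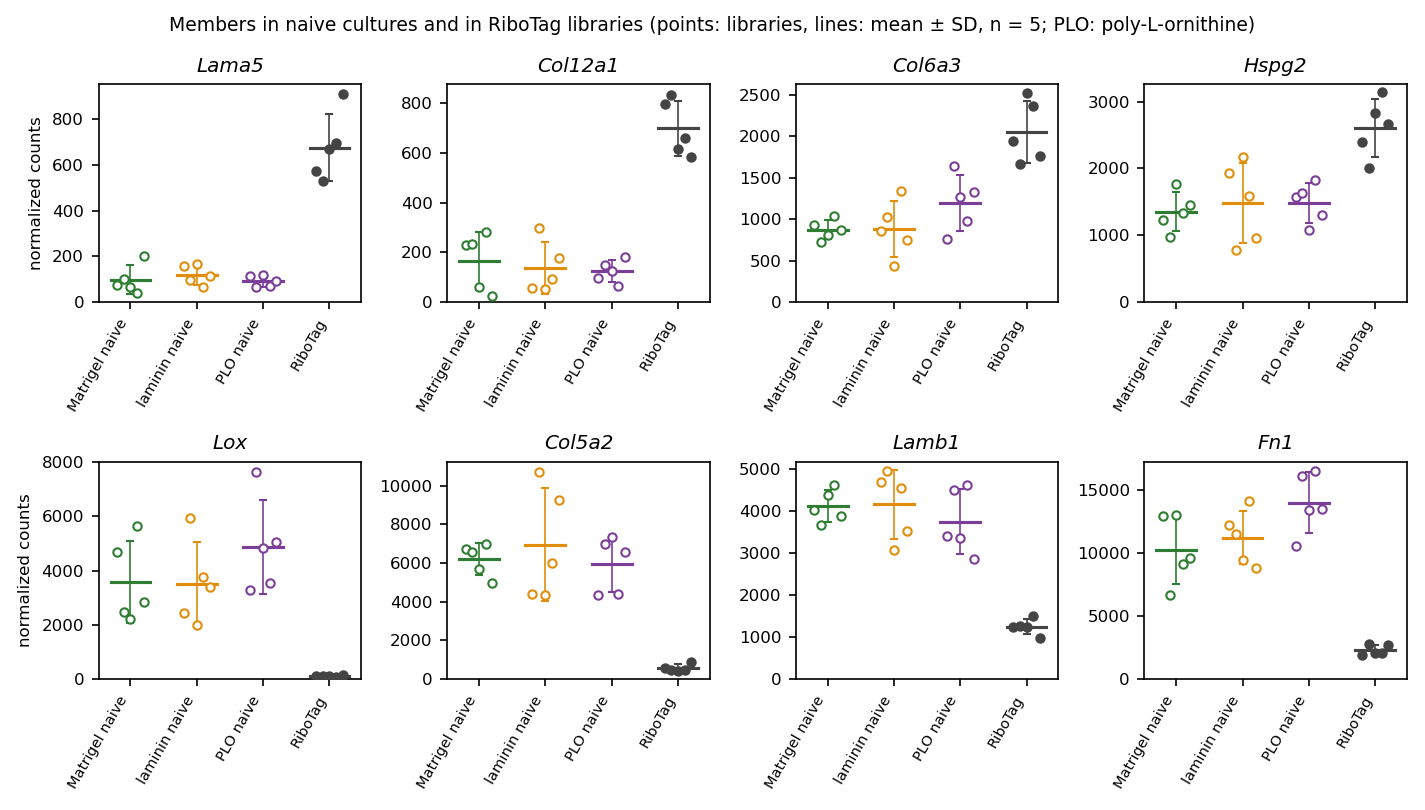
Normalized counts of 8 members in naive culture libraries on 3 coatings (open points) and in RiboTag libraries (filled points); lines are means and bars SD (n = 5). RiboTag libraries lay above all cultures for Lama5, Col12a1 and Col6a3, and below all cultures for Lox, Col5a2, Lamb1 and Fn1.

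Of the interstitial genes that were higher, Col12a1 and Col6a3 did not overlap with cultures. Col12a1, a fibril-associated collagen, held 799.6, 836, 618, 661 and 585 in RiboTag libraries and ran from 23.03 to 299.9 with a median of 124 in cultures (log2 fold change 2.59, standard error 0.446, limma adjusted p = 3.07e-05). Col6a3 held 1949, 1669, 2524, 2372 and 1761 and ran from 437 to 1637 with a median of 927 (log2 fold change 1.11, standard error 0.178, limma adjusted p = 3.09e-06), while the other chains of type VI collagen, Col6a1 (-0.94, limma adjusted p = 2.93e-06) and Col6a2 (-1.22, limma adjusted p = 1.74e-07), were lower in all RiboTag libraries than in all cultures. Col5a3 held 913, 818, 724, 827 and 1239 and ran from 290.2 to 879 with a median of 503 (log2 fold change 0.76, standard error 0.182, limma adjusted p = 7.44e-04), and Col16a1 held 1948, 3068, 2110.2, 2537 and 3129.9 and ran from 1116 to 2106 with a median of 1613 (log2 fold change 0.67, standard error 0.140, limma adjusted p = 1.60e-04). These ranges overlapped in part. In all, 3 members lay above every naive culture in every RiboTag library (12.2% of all genes) and 17 below (5.93% of all genes), of which 15 were interstitial.

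Lox, the lysyl oxidase that starts collagen and elastin crosslinks, was lower by the largest amount. It held 123, 111, 99.8, 88.4 and 155 in RiboTag libraries and ran from 2003 to 7633 with a median of 3538 in naive cultures (log2 fold change -5.003, standard error 0.243, limma adjusted p = 4.88e-13). Col5a2 held 569, 496, 446, 467 and 911 and ran from 4341 to 10726 with a median of 6588 (log2 fold change -3.46, standard error 0.203, limma adjusted p = 1.56e-11), and Col1a1 held 1867, 1170.1, 1036, 1381 and 1815 and ran from 7658 to 23589 with a median of 12267 (log2 fold change -3.22, standard error 0.221, limma adjusted p = 1.55e-09). None of these overlapped. The type V collagen chains thus stood apart, since Col5a1 was not called (-0.04, limma adjusted p = 0.822) and Col5a3 was higher. Col1a2 (-1.65, limma adjusted p = 2.04e-04) and Col3a1 (-1.79, limma adjusted p = 1.26e-05) were lower as well.

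All 4 interstitial proteoglycans were lower in RiboTag libraries. Lum, lumican, held 219, 145, 196, 399 and 180.5 and ran from 1070.3 to 5041 with a median of 2868 in cultures (log2 fold change -3.68, standard error 0.337, limma adjusted p = 7.31e-08). Dcn held 1715, 894, 1639.8, 1264 and 1614 and ran from 5479 to 34222 with a median of 15092 (log2 fold change -3.38, standard error 0.391, limma adjusted p = 1.68e-06), and Bgn held 2216, 2131, 1475, 1876 and 2413 and ran from 6917 to 27118 with a median of 15274 (log2 fold change -2.87, standard error 0.285, limma adjusted p = 2.54e-07). These 3 did not overlap with cultures. Vcan held 43.9, 61.4, 9.51, 77.5 and 10.9 and ran from 52.9 to 491 with a median of 276 (log2 fold change -2.85, standard error 0.417, limma adjusted p = 8.71e-07), with 3 of 5 RiboTag libraries below all cultures. Its levels in IL-1β-treated cultures, from 379 to 1411, all lay above its RiboTag levels.

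Glycoproteins and elastic fibre genes were lower or not called. Fn1 (-2.34, limma adjusted p = 2.15e-13), Tnc (-2.07, limma adjusted p = 1.07e-14) and Thbs1 (-1.89, limma adjusted p = 1.93e-09) were lower without overlap, and Sparc was lower (-0.65, limma adjusted p = 7.61e-04) but remained the highest member, at 54601, 43209.7, 36329, 46335 and 62706. Fbln2, fibulin 2, held 277, 275, 301, 269 and 474 and ran from 520.2 to 3845 with a median of 1984 in cultures, without overlap (log2 fold change -2.59, standard error 0.234, limma adjusted p = 2.85e-09). Fbn1 (-1.20, limma adjusted p = 1.26e-06) and Loxl2 (-0.67, limma adjusted p = 4.90e-05) were lower. Fbln5 was called lower (-0.63, limma adjusted p = 0.0396), and this call was lost without any 1 of 9 libraries (adjusted p up to 0.156), namely laminin naive replicates 4 and 5, Matrigel naive replicate 4, poly-L-ornithine naive replicates 2 and 5 and RiboTag replicates 1 to 4, and without serial set 4 (0.0922). Eln (0.54), Fbln1 (0.07), Postn (0.21), Thbs2 (-1.15), Loxl1 (-0.39), Col14a1 (-0.63) and Col28a1 (1.04) were not called. Thbs2, Loxl1 and Col14a1 were called lower with the library serial set as a block. Without serial set 4, Eln was called higher in RiboTag libraries (log2 fold change 0.90, limma adjusted p = 0.00301).

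The collagen-processing genes were lower in RiboTag libraries in most cases. Of 23 procollagen genes, 2 were called higher and 18 lower (background 31.3% and 14.1%), with a median log2 fold change of -1.18. Serpinh1, the collagen chaperone HSP47, went from 6536 ± 647 in naive cultures (SD, n = 15) to 966 ± 174 in RiboTag libraries (n = 5; log2 fold change -2.77, limma adjusted p = 6.26e-22), and Pcolce (log2 fold change -2.88, limma adjusted p = 6.31e-14) was lower. Pcolce2 was lower too, at low levels (35.2 ± 27.6 to 6.86 ± 13.4, log2 fold change -2.70, limma adjusted p = 0.00289). The prolyl hydroxylase P3h2 was higher, also at low levels (20.8 ± 33.4 to 87.8 ± 32.9, log2 fold change 3.62, limma adjusted p = 0.00255). The prolyl hydroxylase subunit P4ha3 was higher as well (106 ± 77.1 to 340 ± 146, log2 fold change 1.99, limma adjusted p = 0.00331). Of 74 other matrix genes tested, 26 were called higher and 22 lower (background again 31.3% and 14.1%, median 0.40). Col9a2, a chain of a fibril-associated collagen of cartilage, went from 6.68 ± 10.4 to 1634 ± 436 (log2 fold change 8.44, limma adjusted p = 1.98e-11). The brain proteoglycan brevican, Bcan (1.48 ± 4.97 to 329 ± 102, log2 fold change 6.97, limma adjusted p = 9.42e-11), and Smoc1 (7.51 ± 15.1 to 324 ± 117, log2 fold change 6.28, limma adjusted p = 2.65e-08) were higher. The microfibril protein Mfap5, which is also in the fibroblast list (log2 fold change -4.21, limma adjusted p = 1.80e-06), the laminin α1 chain Lama1 (log2 fold change -4.17, limma adjusted p = 2.91e-08) and Ccn5 (log2 fold change -4.13, limma adjusted p = 5.47e-07) were lower.

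The IL-1β and RiboTag comparisons share the naive cultures, so their values are set side by side and not correlated. Of the 10 members that rose with IL-1β, 3 were higher and 6 lower in RiboTag libraries than in naive cultures, and of the 15 that fell, 3 were higher and 8 lower. Among all 46 members, 9 were higher and 27 lower, beside 31.3% and 14.1% of all genes tested. A relation between the IL-1β and RiboTag calls was not tested. Hspg2 had a log2 fold change of 0.41 with IL-1β and 0.90 in RiboTag libraries, Nid1 0.85 and -1.59, and Col6a3 -1.23 and 1.11.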

How the data were processed

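Libraries were made by 3′ mRNA sequencing (QuantSeq). The authors trimmed reads with cutadapt, aligned them to mm10 with STAR in Partek Flow and deposited 1 table of normalized counts, that is, estimated counts per gene divided by a DESeq2 size factor. The deposited unit is thus a scaled signal. Versions of Partek Flow, cutadapt and DESeq2 and the annotation release were not given in the sources used here. Whole reads were not recovered, since 85.8% to 89.1% of low values were whole multiples of a library's step (tolerance 0.01). The depth of single libraries is thus unknown beyond the general figure in the paper's methods, and precision rests on the replicates. The labels give 3 days on the coating, the paper's methods give a longer time. Adult age and the tamoxifen treatment come from those methods.

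Groups came from the sample titles, and all 35 libraries were used. Tests used limma 3.58.1 (R 4.3.3; trend, robust) on log2(normalized count + 2), for genes with a maximum above 15, with Benjamini-Hochberg adjustment over all genes. The 30 culture libraries were fitted as 6 groups (20687 genes) and RiboTag with naive cultures as 4 groups (20320 genes). Marker sums were compared by two-sided exact permutation tests (Python 3.11.15, scipy 1.17.1), and gene sets were not tested. Statistics measure the spread between the samples labelled as biological replicates. Coordinates and promoter windows are from RefSeq on GRCm38.p6, with a window for 31 of 46 members.

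Values are given for all called members with up to 8 per direction in full (each library, or lowest, median and highest over 15), ranked by absolute log2 fold change (mean level of the higher group 50 or more), for the 2 members of smallest p where none was called, and for up to 3 genes per direction of the other lists. The members, lists and comparisons were chosen with earlier results of these data known. Other pseudocounts (0.5 and 8), filters, scalings, blocks, prior settings and leaving out each library were tried. Leaving out serial set 4, and C3, Gsn or Rgs5 from marker sums, was added after seeing the data.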

Additional observations from a re-analysis of the deposited data

Results flagged for a closer look

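Of 217 gene and group pairs screened among the members described with their values, 19 had 1 library farther from the rest than Dixon's 95% critical value of 0.71 for 5 samples allows. Chance gives about 1 in 20 groups. Eln held 1474 in replicate 4 of the naive Matrigel cultures, where the others held 222 to 306. It also held 2242 in replicate 2 of the naive laminin cultures, where the others held 239.9 to 530.4, and 132 in replicate 1 of the IL-1β-treated poly-L-ornithine cultures, where the others held 34.6 to 53.4. Col15a1 held 608 in replicate 1 of the naive Matrigel cultures, where the others held 168 to 187. It also held 633 in replicate 4 of the naive laminin cultures, where the others held 102 to 251.7. Col1a1 held 18661 in replicate 3 of the IL-1β-treated Matrigel cultures, where the others held 4459 to 7811. It also held 18802 in replicate 1 of the IL-1β-treated laminin cultures, where the others held 6351 to 7630.3. Sparc held 88740.5 in replicate 1 of the IL-1β-treated laminin cultures, where the others held 46238 to 55991. Fbln2 held 3898 in replicate 5 of the IL-1β-treated poly-L-ornithine cultures, where the others held 1595 to 1763. It also held 474 in replicate 5 of the RiboTag libraries, where the others held 269 to 301. Of these, the Eln, Col1a1, Sparc and Fbln2 libraries from naive Matrigel replicate 4, naive laminin replicate 2, IL-1β-treated Matrigel replicate 3, laminin replicate 1 and poly-L-ornithine replicate 5 make up serial set 4 together with naive poly-L-ornithine replicate 5.

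Col5a3 held 879 in replicate 1 of the naive laminin cultures, where the others held 434 to 513. It also held 1205 in replicate 1 of the IL-1β-treated laminin cultures, where the others held 572 to 722. Lama2 held 387 in replicate 2 of the naive poly-L-ornithine cultures, where the others held 76.4 to 139.9. It also held 236 in replicate 3 of the IL-1β-treated laminin cultures, where the others held 50.7 to 102. Vcan held 205 in replicate 1 of the naive poly-L-ornithine cultures, where the others held 416 to 491. Hspg2 held 1693 in replicate 1 of the IL-1β-treated poly-L-ornithine cultures, where the others held 2103 to 2227. Dag1 held 947 in replicate 3 of the IL-1β-treated laminin cultures, where the others held 1199 to 1295. Col12a1 held 23.4 in replicate 4 of the IL-1β-treated Matrigel cultures, where the others held 109 to 137. Col5a2 held 911 in replicate 5 of the RiboTag libraries, where the others held 446 to 569. The Lama2 libraries both belong to serial set 2, and the low Vcan, Hspg2 and Col12a1 libraries to serial set 3.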

How the results depend on the processing

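No direction of a member's call reversed under any alternative. Of 25 members called in the mean response to IL-1β, 22 stayed called without any single library and 18 under every alternative, and of 36 called in RiboTag libraries, 32 did under every alternative. Counts moved by over 1.5 times within single coatings and, with the serial block, between coatings. With the library serial number as a block they were 4 higher and 13 lower on Matrigel, 4 and 9 on laminin, and 3 and 10 on poly-L-ornithine, and between coatings 1 lower (naive), and 1 higher and 1 lower (IL-1β). Calls among all 20687 genes rose too, from 235 higher and 170 lower to 337 and 366 on Matrigel. They went from 237 and 152 to 355 and 304 on laminin, and from 249 and 235 to 355 and 410 on poly-L-ornithine. Between coatings they went from 0 and 0 to 11 and 9 (naive), and from 46 and 17 to 148 and 70 (IL-1β). With a constant variance prior they were 1 and 2 on Matrigel, 2 lower on laminin, and 0 and 1 on poly-L-ornithine. With only the groups compared, 2 were higher on laminin, and 4 higher and 9 lower on poly-L-ornithine. Called higher on laminin were also 1 with pseudocount 8, 1 with the mean filter of 50, 1 with the replicate block and 2 without serial set 4, which left 0 higher on poly-L-ornithine. The replicate block gave 2 lower on poly-L-ornithine.

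Replicate numbers did not pair the libraries: the mean correlation of deviations was -0.0072, 0 of 75 pairs exceeded 0.1 and 3 of 30 libraries correlated best with their own number. By serial rank 29 of 30 did (mean 0.046, highest 0.121, 2 of 75 pairs over 0.1), a hint from the data and not from the design. The replicate block gave 9 higher and 14 lower in the mean response and 9 and 28 in RiboTag libraries, the serial block 11 and 21, and 9 and 30. Of all genes, the replicate block called 680 higher and 805 lower in the mean response, and the serial block 878 and 1077. In RiboTag libraries these were 6315 and 2849, and 6510 and 2982. The serial block added Lamb1 (higher) and Col18a1, Col1a2, Col3a1, Fn1, Lum and Postn (lower) to the mean response (limma adjusted p 9.94e-06 to 0.0222) and Col14a1, Loxl1 and Thbs2 (lower) in RiboTag libraries (8.49e-07 to 0.0347).

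Leaving out 1 library gave 8 to 11 higher and 14 to 16 lower in the mean response, 1 to 2 and 3 to 7 on Matrigel, 0 to 1 and 2 to 5 on laminin, 0 to 2 and 2 to 5 on poly-L-ornithine, 8 to 9 and 25 to 28 in RiboTag libraries, and 0 between coatings. Leaving out 1 of these replicates ended calls within a coating. On Matrigel these were Col16a1 (naive 2, 3 and 5, IL-1β 4 and 5, limma adjusted p up to 0.104), Lamb2 (naive 2, 3 and 4, IL-1β 4 and 5, limma adjusted p up to 0.131) and Thbs1 (naive 3, 4 and 5, IL-1β 2, 3 and 5, limma adjusted p up to 0.117). On laminin it was Fbln5 (naive 2, 4 and 5, IL-1β 1, 4 and 5, limma adjusted p up to 0.108). On poly-L-ornithine these were Col5a3 (naive 2 and 3, IL-1β 2, 3 and 5, limma adjusted p up to 0.104), Fbln5 (naive 2, 3 and 5, IL-1β 3, 4 and 5, limma adjusted p up to 0.126) and Sparc (naive 2 and 5, IL-1β 1, 3 and 4, limma adjusted p up to 0.0841).

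Depth could not be read from the normalized values, and the lowest members, Nid2 and Col28a1, are near the floor of the assay. Cultures and RiboTag libraries differ in mouse line, RNA fraction and cell makeup at once. Cell makeup was read from marker sums only.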
